A study of Mus musculus with 6 samples.

Results

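The genes described here carry the calcium signal of T cells from the membrane to the nucleus: the calcium sensors Stim1 and Stim2, the channel subunits Orai1 and Orai2, the calcineurin catalytic subunits Ppp3ca and Ppp3cb, and the transcription factors Nfatc1, Nfatc2 and Nfatc3. They were chosen by name, each through a probe set annotated with its symbol alone, and all 9 were measured among 19938 genes. Orai2 had 2 such probe sets, of which the one with the higher mean over the arrays was used, and the other genes had 1. Expression was measured on 6 Affymetrix arrays, 3 of Ly-6C-negative and 3 of Ly-6C-positive naive CD4 T cells. The groups differed in Ly-6C, a lipid-anchored surface protein of the Ly6 family. The mice were C57BL/6 Foxp3-GFP, 6 weeks old, and gave cells of their peripheral lymph nodes, and their fluorescent reporter marks cells with Foxp3, the factor of regulatory T cells. Both groups were sorted as CD4+, CD8-, TCRβ+, CD44lo, CD25- and Foxp3- after enrichment on magnetic beads. The labels call the arrays biological replicates but do not say which mice gave which cells, whether mice were pooled, or whether the same mice gave both groups, so p-values measure the spread between these arrays.

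When a T cell receptor is engaged, the endoplasmic reticulum releases calcium, STIM proteins sense that the store has emptied, and they open ORAI channels in the plasma membrane. The calcium that enters binds calmodulin and activates calcineurin, a phosphatase that removes phosphates from NFAT proteins so that they move into the nucleus. Much of this control acts on the location and phosphorylation of the proteins, which an array of transcripts does not measure. NFAT drives cytokine genes together with AP-1 in activated T cells and can turn on genes of anergy and tolerance where AP-1 is lacking.

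The sort was visible on the arrays. A probe set shared by Ly6c1 and Ly6c2 measured 8.22, 8.69 and 8.55 on the log2 scale in Ly-6C-negative cells, against 11.58, 11.71 and 11.69 in Ly-6C-positive cells (limma adjusted p = 3.94e-05 over all probe sets, of which 0.156% passed). The 6 measured CD4 T cell genes, Cd4 and Cd3e among them, lay between 9.82 and 12.50 on every array. Markers of B cells lay between 4.01 and 6.09, of myeloid cells between 4.23 and 5.49, of dendritic cells between 4.87 and 5.92 and of NK cells between 3.82 and 7.15, and none of these 17 genes passed the test. Such values have no true zero, and the level of 1 probe set cannot be set against that of another. Across genes, r between arrays of 1 group lay between 0.993 and 0.998, and r between arrays of different groups between 0.994 and 0.997. On the first principal component, with 34.6% of the variance, Ly-6C-negative replicate 2 had a score of 19.9 while the other 5 arrays lay between -10.0 and -0.26.

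None of the 9 genes passed the test between the groups. The test was limma's, adjusted over all genes, and a gene passed at an adjusted p under 0.05, as 29 genes or 0.145% of all did, 0.1% of all with a higher and 0.0451% with a lower level in Ly-6C-negative cells. The adjusted p of the 9 genes lay between 0.654 for Orai1 and 0.994 for Ppp3cb. At an unadjusted p under 0.05 there were 2 of 9, Orai1 and Nfatc1, where 6.71% of all genes lay. All differences are Ly-6C-negative minus Ly-6C-positive on the log2 scale. They ran from -0.11 for Orai2 to 0.22 for Orai1, with 6 above and 3 below 0 and a median of 0.033, against a median of -0.0048 over all genes. Without Ly-6C-negative replicate 3 the count above 0 was 3 of 9 and the median -0.025. Of all genes brighter than the median gene, as the 9 were, 54.4% lay above 0 and the median was 0.0099. Groups were free of overlap in 1 of the 9 genes, Orai1, as in 12.6% of all genes. In a bulk sample a lower share of expressing cells and less RNA in each cell cannot be told apart.

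**Figure D1:**
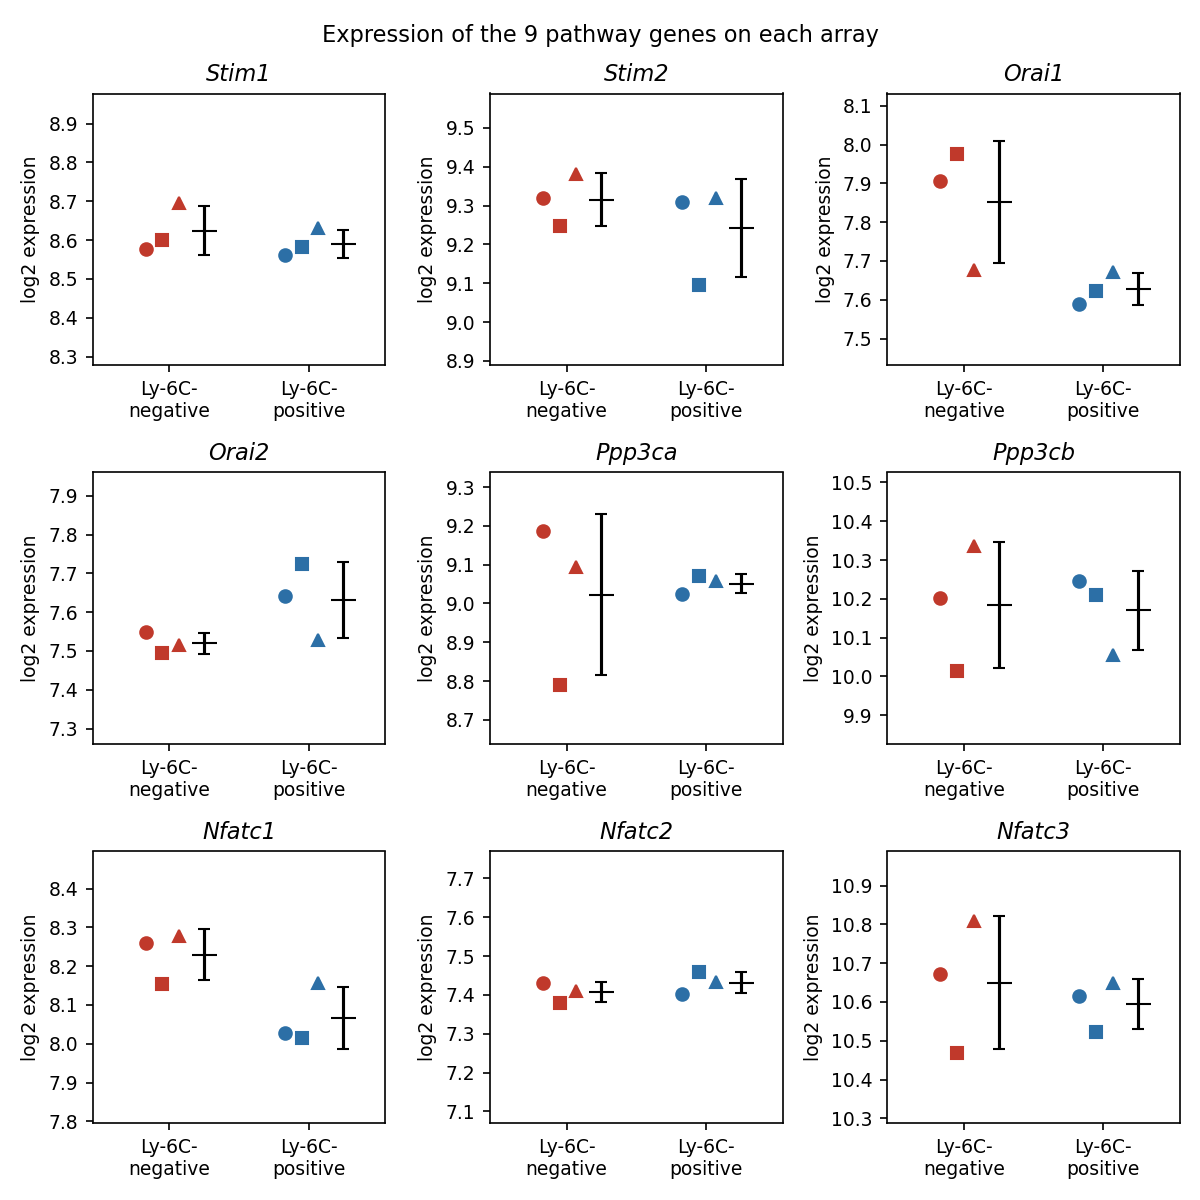
Expression of the 9 genes on each array, as log2 values on axes of equal span. Circles, squares and triangles are replicates 1, 2 and 3, and bars are mean ± SD (n = 3). Orai1 is the one gene whose Ly-6C-negative arrays all lie above its Ly-6C-positive arrays, by a gap of 0.0037.

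Stim1 encodes the sensor that drives most store-operated calcium entry in T cells. It measured 8.58, 8.60 and 8.70 in Ly-6C-negative cells, against 8.56, 8.58 and 8.63 in Ly-6C-positive cells. The arrays of the groups interleaved, and the difference of 0.033 was smaller than its standard error of 0.066 (limma adjusted p = 0.963). Its 95% interval, from -0.11 to 0.18, leaves room for a change of up to 1.13-fold upward. Leaving out Ly-6C-negative replicate 3 brought the difference to -0.0019. Stim2, the sensor that responds to smaller drops of store calcium, measured 9.32, 9.25 and 9.38 in Ly-6C-negative cells, against 9.31, 9.10 and 9.32 in Ly-6C-positive cells. Ly-6C-positive replicate 2 was the low array, and the other 5 lay between 9.25 and 9.38. The difference was 0.074 with an interval from -0.11 to 0.25 (limma adjusted p = 0.919), and leaving out the low array brought it to 0.0013.

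Orai1, the pore subunit of the calcium release-activated channel, had the smallest p of the 9 genes. It measured 7.91, 7.97 and 7.68 in Ly-6C-negative cells, against 7.59, 7.62 and 7.67 in Ly-6C-positive cells. Replicates 1 and 2 of the Ly-6C-negative cells stood clear of every Ly-6C-positive array, while replicate 3 was level with the highest of them. Between same-numbered arrays the difference was 0.32, 0.35 and 0.0037. The mean difference was 0.22, or 1.17-fold, with an interval from 0.033 to 0.42, and it did not pass (limma unadjusted p = 0.0260, adjusted p = 0.654). It was 0.31 when Ly-6C-negative replicate 3 was left out (limma adjusted p = 0.285) and 0.16 when replicate 2 of that group was (limma adjusted p = 0.573).

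Orai2, a homologue whose protein can join ORAI1 in the same channel, had the lowest difference of the 9. It measured 7.55, 7.50 and 7.51 in Ly-6C-negative cells, against 7.64, 7.72 and 7.53 in Ly-6C-positive cells. Ly-6C-positive replicate 3 fell among the Ly-6C-negative arrays and the other 2 lay above all of them. The difference was -0.11 with an interval from -0.27 to 0.049 (limma adjusted p = 0.850), and it was -0.065 when Ly-6C-positive replicate 2 was left out. The other Orai2 probe set measured 7.17, 6.96 and 7.22 in Ly-6C-negative cells, against 7.22, 7.36 and 7.27 in Ly-6C-positive cells. It differed by -0.17 (limma adjusted p = 0.808 over all probe sets), the same direction as the probe set used, and Ly-6C-negative replicate 3 was level with Ly-6C-positive replicate 1.

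The promoter windows of Orai1 and Orai2 are shown because these genes had the highest and the lowest difference of the 9. Each window is RefSeq sequence of GRCm38.p6, 250 bases before to 50 after an annotated start, written 5′ to 3′ along the gene. Capitals mark GGAAA, the core that NFAT proteins bind, or its reverse complement TTTCC. The Orai1 window is chr5:123014824-123015123 on the plus strand and the Orai2 window is chr5:136170607-136170906 on the minus strand.
Orai1: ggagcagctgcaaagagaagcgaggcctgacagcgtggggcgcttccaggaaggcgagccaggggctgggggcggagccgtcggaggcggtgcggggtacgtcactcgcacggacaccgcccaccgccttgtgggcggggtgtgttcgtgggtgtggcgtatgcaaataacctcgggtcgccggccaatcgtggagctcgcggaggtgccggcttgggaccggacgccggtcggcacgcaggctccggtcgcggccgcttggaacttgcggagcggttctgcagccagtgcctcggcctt
Orai2: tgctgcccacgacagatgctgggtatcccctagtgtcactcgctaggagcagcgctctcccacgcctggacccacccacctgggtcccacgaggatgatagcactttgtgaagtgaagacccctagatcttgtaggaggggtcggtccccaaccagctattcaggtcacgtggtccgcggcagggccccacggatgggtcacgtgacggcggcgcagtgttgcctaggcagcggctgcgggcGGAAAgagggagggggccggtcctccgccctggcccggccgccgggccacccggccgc
The Orai1 window held no core and the Orai2 window held 1, near the start. Windows were found for 7 of the 9 genes, 9 windows in all since Nfatc2 and Nfatc3 have 2 each, and 5 of the 9 windows held at least 1 core. Over 32851 windows of the same length 61.3% did. The Ppp3cb window held 4 cores and an Nfatc2 window held 3, and 9.42% of all windows held 3 or more. These are matches of letters and say nothing of binding.

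The calcineurin subunits varied more within the Ly-6C-negative group than between the groups. Ppp3ca, the alpha catalytic subunit, measured 9.19, 8.79 and 9.09 in Ly-6C-negative cells, against 9.02, 9.07 and 9.06 in Ly-6C-positive cells. Ly-6C-negative replicate 2 was the lowest of the 6 arrays and the other 2 of its group were the highest, which gave an SD of 0.21 against 0.024 in Ly-6C-positive cells. The difference was -0.028 with an interval from -0.25 to 0.19 (limma adjusted p = 0.982), and it turned to 0.089 when that array was left out (limma adjusted p = 0.730). Ppp3cb, the beta catalytic subunit, measured 10.20, 10.01 and 10.34 in Ly-6C-negative cells, against 10.25, 10.21 and 10.06 in Ly-6C-positive cells. The same Ly-6C-negative array was again the lowest and the groups interleaved. The difference was 0.014 with an interval from -0.20 to 0.22 (limma adjusted p = 0.994), and it was 0.10 without Ly-6C-negative replicate 2 and -0.062 without Ly-6C-negative replicate 3.

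Nfatc1, whose transcription rises when T cells are activated, was the member with the smallest p after Orai1. It measured 8.26, 8.15 and 8.28 in Ly-6C-negative cells, against 8.03, 8.01 and 8.16 in Ly-6C-positive cells. The groups overlapped only through near-equal arrays, Ly-6C-negative replicate 2 and Ly-6C-positive replicate 3. Every same-numbered difference was above 0, at 0.23, 0.14 and 0.12. The mean difference was 0.16, or 1.12-fold, with an interval from 0.0032 to 0.32, and it did not pass (limma unadjusted p = 0.0464, adjusted p = 0.739). With Ly-6C-negative replicate 2 left out it was 0.20 (limma adjusted p = 0.468).

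Nfatc2 and Nfatc3 encode NFAT proteins that resting T cells already hold in the cytoplasm. Nfatc2 measured 7.43, 7.38 and 7.41 in Ly-6C-negative cells, against 7.40, 7.46 and 7.43 in Ly-6C-positive cells. It had an SD of 0.026 in Ly-6C-negative and 0.028 in Ly-6C-positive cells, and its difference of -0.025 had an interval from -0.16 to 0.11 (limma adjusted p = 0.971). With Ly-6C-negative replicate 2 or Ly-6C-positive replicate 2 left out the difference was -0.011. Nfatc3, which also acts in thymocyte development, measured 10.67, 10.47 and 10.81 in Ly-6C-negative cells, against 10.61, 10.52 and 10.65 in Ly-6C-positive cells. Its Ly-6C-negative arrays were both the highest and the lowest. The difference was 0.054 with an interval from -0.15 to 0.26 (limma adjusted p = 0.952), 0.15 without Ly-6C-negative replicate 2 and -0.025 without Ly-6C-negative replicate 3.

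**Figure D2:**
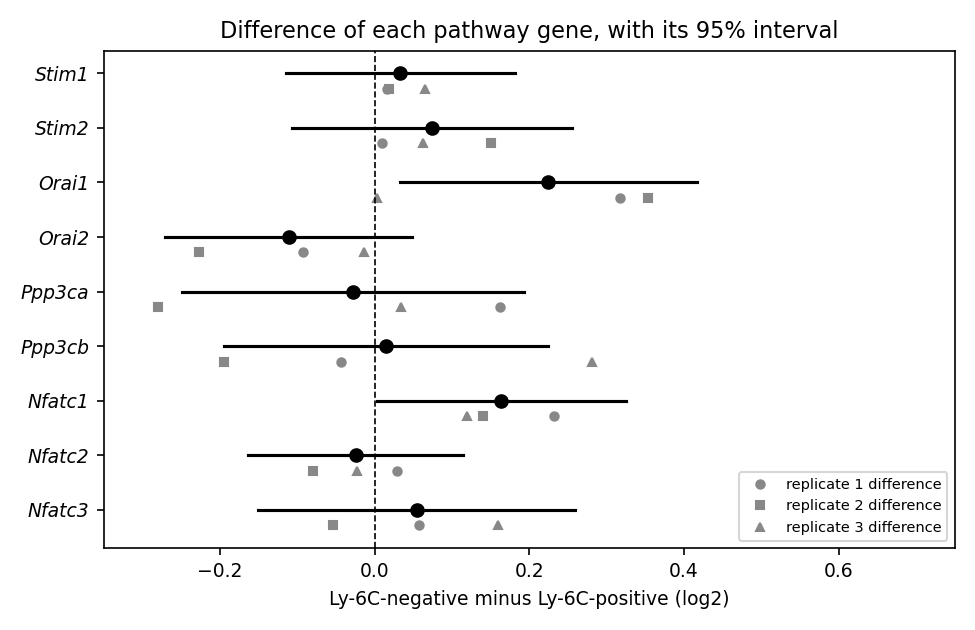
Difference between the groups for each gene on the log2 scale, Ly-6C-negative minus Ly-6C-positive, with the 95% interval from limma as a line. Grey symbols are the differences between same-numbered arrays. The intervals of Orai1 and Nfatc1 lie above 0 before adjustment for the number of genes, and the other 7 cross it.

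Across the 9 genes the upper ends of the intervals lay between 0.049 for Orai2 and 0.42 for Orai1, and the lower ends between -0.27 for Orai2 and 0.033 for Orai1. As folds, the widest upper bound was 1.33 for Orai1 and the smallest lower bound was 0.829 for Orai2. These intervals cover each gene alone and are not adjusted for the number of genes.

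Members of the same family were also set against each other within each array, as the log2 value of 1 gene minus that of its relative, over 6 pairs. The size of such a value carries the properties of both probe sets, so that only its difference between the groups was read. Orai1 minus Orai2 was 0.36, 0.48 and 0.16 in Ly-6C-negative cells, against -0.053, -0.10 and 0.14 in Ly-6C-positive cells. The groups did not overlap, though Ly-6C-negative replicate 3 and Ly-6C-positive replicate 3 were close. The difference between the groups was 0.34 (exact permutation test, 2-sided p = 0.1, adjusted p = 0.3 over the 6 pairs), where 0.1 is the smallest p that 3 arrays against 3 allow. Nfatc1 minus Nfatc2 was 0.83, 0.77 and 0.87 in Ly-6C-negative cells, against 0.62, 0.55 and 0.73 in Ly-6C-positive cells. Here too the groups did not overlap, with a difference of 0.19 (exact permutation test, 2-sided p = 0.1, adjusted p = 0.3). The other 4 pairs overlapped. How often the groups overlap in pairs of other genes was not counted. A pair's group difference follows from those of its genes, and Orai1 and Orai2 had the highest and lowest of the 9. Nfatc1 minus Nfatc3 differed between the groups by 0.11, Nfatc2 minus Nfatc3 by -0.079, Stim1 minus Stim2 by -0.040 and Ppp3ca minus Ppp3cb by -0.043, with exact permutation p from 0.3 to 0.9.

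**Figure D3:**
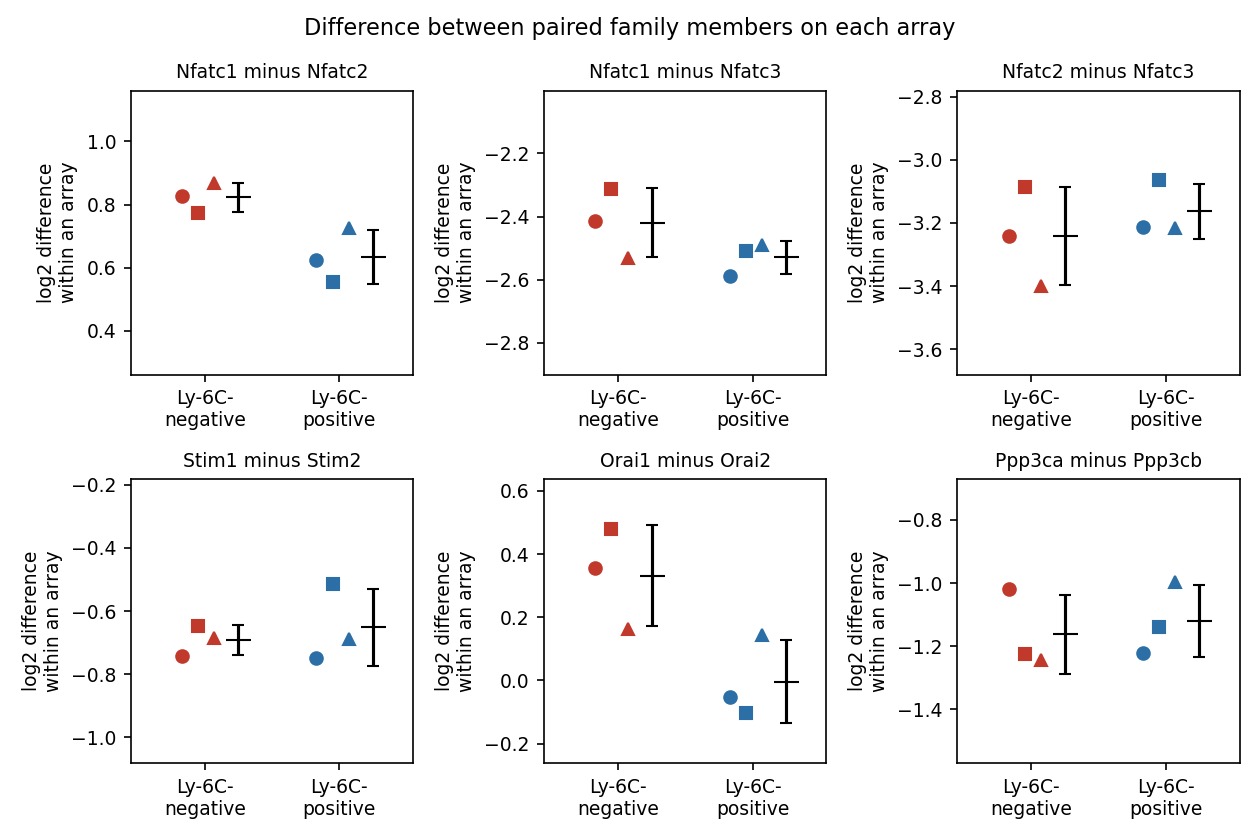
Log2 difference between paired family members within each array, on axes of equal span. Circles, squares and triangles are replicates 1, 2 and 3, and bars are mean ± SD (n = 3). Orai1 minus Orai2 and Nfatc1 minus Nfatc2 are the pairs whose groups do not overlap, with differences of 0.34 and 0.19 between the groups. Each had an exact permutation p of 0.1, adjusted p of 0.3.

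The genes whose values over the 6 arrays lay closest to those of Orai1, after each gene was centred on its own mean, were Spint2, Ubxn8, Cox18, Pvt1 and Mir335. Their Euclidean distances lay between 0.060 for Spint2 and 0.10 for Mir335. Each had its high values in Ly-6C-negative replicates 1 and 2 as Orai1 did. This likeness, and differences above 0, follow from how the genes were chosen. Spint2, a protease inhibitor gene, measured 7.81, 7.90 and 7.61 in Ly-6C-negative cells, against 7.55, 7.60 and 7.62 in Ly-6C-positive cells. The differences of these 5 genes ran from 0.16 for Cox18 to 0.21 for Pvt1, and none passed (limma adjusted p from 0.686 to 0.824). When Ly-6C-negative replicate 2 was left out, the difference was 0.12 for Spint2, 0.092 for Cox18, 0.11 for Pvt1 and 0.091 for Mir335.

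Around the 9 genes, 75 others of the pathway were measured of 81 listed by role. The lists were drawn up with earlier results of these data known, so their counts are not a test of the pathway. Of the 75 genes 2 passed, both higher in Ly-6C-negative cells and both in the list of NFAT targets. Above 0 lay 55 of the 75, with a median difference of 0.055, against 47.8% of all genes above 0. With array medians subtracted 61 of 75 lay above 0, against 57.3% of all genes, and without Ly-6C-negative replicate 3 it was 48 of 75. For genes brighter than the median gene it was 44 of 58, against 54.4% of all such genes. Groups were free of overlap in 20 of the 75, against 12.6% of all genes. Except for Rcan1 and Ppp3r2, the genes named below were taken for the smallest p of their list. Such a choice favours groups without overlap. None of the lists before the NFAT targets had a member past the threshold, and 6 of their 58 genes had an unadjusted limma p under 0.05, where 0.145% of all genes passed and 6.71% had such a p.

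Upstream of the store, the list of receptor-proximal calcium release had 9 measured genes, 7 above and 2 below 0, with a median of 0.024. Plcg1, the phospholipase that makes inositol trisphosphate after T cell receptor engagement, measured 9.42, 9.38 and 9.48 in Ly-6C-negative cells, against 9.22, 9.27 and 9.28 in Ly-6C-positive cells. The groups did not overlap, and its difference of 0.17 did not pass (limma adjusted p = 0.654). Itpka, an inositol trisphosphate kinase gene, differed by 0.085, or -0.0047 when Ly-6C-negative replicate 2 was left out, and Itpr3, an inositol trisphosphate receptor gene, by 0.055. Itpka was dim, between 5.36 and 5.68 on the arrays. Among 7 regulators of store-operated entry, 3 lay above and 4 below 0. Cracr2a, a calcium-binding protein that associates with ORAI1 and STIM1, measured 7.57, 7.73 and 7.67 in Ly-6C-negative cells, against 7.46, 7.39 and 7.31 in Ly-6C-positive cells. Its groups did not overlap and its difference of 0.27 was the largest in that list, without passing (limma adjusted p = 0.458). The mean of the probe sets of Cracr2a gave a smaller difference of 0.16 (limma adjusted p = 0.719). Saraf, which slows store-operated entry, differed by -0.11 with groups that did not overlap, and Septin7, a cytoskeletal GTPase gene, by 0.11. When Ly-6C-negative replicate 2 was left out, Saraf differed by -0.064 and Septin7 by 0.062.

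Ion channels and pumps that shape the calcium signal gave 0 calls in limma's test. Kcna3, the potassium channel that keeps the membrane potential needed for calcium entry, measured 7.62, 7.76 and 7.80 in Ly-6C-negative cells, against 7.42, 7.48 and 7.57 in Ly-6C-positive cells. The groups did not overlap, and the difference was 0.24 (limma adjusted p = 0.570). P2rx7, an ATP-gated cation channel gene, measured 7.73, 7.57 and 8.14 in Ly-6C-negative cells, against 7.32, 7.26 and 7.65 in Ly-6C-positive cells. Replicate 3 was the high array in both groups, and its difference of 0.40 had limma adjusted p = 0.643, or 0.126 in the fit that pairs the replicate numbers. It was 0.24 when Ly-6C-negative replicate 3 was left out. Kcnk5, a potassium channel gene, differed by -0.082, or -0.0080 when Ly-6C-positive replicate 2 was left out, and in all 6 of the 7 channel genes lay above 0 with a median of 0.052. Kcnk5 was dim, between 4.96 and 5.30 on the arrays. Of 8 genes of calcium pumps and mitochondrial uptake, 7 lay above 0 with a median of 0.11. Among them Mcu, the mitochondrial calcium uniporter gene, differed by 0.15, its regulator Micu2 by 0.12 and Atp2a3, a pump that refills the store, by 0.16. When Ly-6C-negative replicate 2 was left out, these differences were 0.092 for Mcu, 0.055 for Micu2 and 0.26 for Atp2a3. Atp2a3 differed by 0.034 when Ly-6C-negative replicate 3 was left out.

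The calcineurin gamma catalytic subunit Ppp3cc and the regulatory subunit Ppp3r1 lay on opposite sides of 0, and neither passed. Ppp3cc, the gamma subunit, measured 9.71, 9.65 and 9.72 in Ly-6C-negative cells, against 9.87, 9.97 and 9.80 in Ly-6C-positive cells. The groups did not overlap, and the difference of -0.19 had an interval from -0.34 to -0.032 (limma adjusted p = 0.643). Ppp3r1, a regulatory subunit, differed by 0.13 with groups that did not overlap (limma adjusted p = 0.805). The other regulatory subunit gene, Ppp3r2, lay on the side of Ppp3cc at -0.093, with groups that overlapped (limma adjusted p = 0.892). Ppp3r2 was dim, between 3.93 and 4.15 on the arrays, so that its side of 0 says little. The calmodulin gene Calm3 differed by 0.19 (limma adjusted p = 0.864). Calm3 differed by 0.042 when Ly-6C-negative replicate 2 was left out. Among 8 genes of calcineurin inhibitors and immunophilins, 5 lay above and 3 below 0. Rcan3, a calcineurin-binding inhibitor gene, measured 8.79, 8.66 and 8.73 in Ly-6C-negative cells, against 8.56, 8.58 and 8.56 in Ly-6C-positive cells. Its groups did not overlap, with a difference of 0.16 (limma adjusted p = 0.710). Rcan1, an inhibitor gene that NFAT itself induces, differed by 0.073, Rcan2 by -0.094 and the anchoring protein gene Akap5 by -0.20. With 1 array left out, Rcan1 lay between 0.042 and 0.12 and Akap5 between -0.31 and -0.11, and Rcan2 was -0.059 when Ly-6C-positive replicate 1 was left out. Rcan2 was dim, between 4.86 and 5.07 on the arrays.

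Kinases and scaffolds that return NFAT to the cytoplasm or hold it there had 7 of 10 genes above 0 with a median of 0.076. Csnk1d, a casein kinase gene, differed by 0.15, Homer2, whose product competes with calcineurin for NFAT, by -0.13 and Lrrk2, a kinase gene linked to NFAT retention, by 0.12. These 3 genes were named for the smallest p of the list, a choice that favours groups without overlap. Their groups did not overlap, as in 4 of the 10 genes and 12.6% of all genes. Their limma adjusted p lay between 0.749 and 0.811. Lrrk2 was dim, between 4.59 and 4.81 on the arrays. The mean of the probe sets of Lrrk2 gave 0.069. Nfatc2ip, an NFAT-interacting protein gene, differed by 0.089. In the rest of the NFAT family, Nfat5, which responds to osmotic stress and not to calcineurin, differed by -0.022 and Nfatc4 by 0.00083.

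The list of 17 genes known as NFAT targets was drawn up with earlier results of these data known. Of these genes 2 were called higher in Ly-6C-negative cells and none lower. Their differences ran from -0.20 to 1.34 with a median of 0.070, 14 above and 3 below 0. The gene at -0.20 also had groups without overlap (limma adjusted p = 0.644). Of all genes 0.1% were called higher and 47.8% lay above 0. Some targets were dim, with values down to 3.44. Among genes brighter than the median gene, 9 of 11 targets lay above 0, against 54.4% of all such genes. Ctla4, an inhibitory receptor gene, measured 9.98, 9.72 and 9.60 in Ly-6C-negative cells, against 8.78, 8.30 and 8.20 in Ly-6C-positive cells, 2.53-fold higher (limma adjusted p = 0.0121). Tnfrsf9, the gene of the costimulatory receptor 4-1BB, measured 7.27, 7.38 and 7.24 in Ly-6C-negative cells, against 6.74, 6.83 and 6.84 in Ly-6C-positive cells, 1.41-fold higher (limma adjusted p = 0.0325). Every Ly-6C-negative array of both genes lay above every Ly-6C-positive array. Ctla4 lost its call without Ly-6C-negative replicate 1 and without Ly-6C-positive replicate 2 or 3 (limma adjusted p from 0.0790 to 0.140). Tnfrsf9 lost its call without each array in turn except Ly-6C-negative replicate 2 (limma adjusted p from 0.0607 to 0.239). Icos, a costimulatory receptor gene, measured 10.11, 9.58 and 9.94 in Ly-6C-negative cells, against 9.31, 9.15 and 9.23 in Ly-6C-positive cells. Its groups did not overlap, and its difference of 0.64 had limma adjusted p = 0.145. In the fit that pairs the replicate numbers, where 0.206% of all genes passed, it did pass (limma adjusted p = 0.0204). It also passed with array weights (limma adjusted p = 0.0154) and when Ly-6C-negative replicate 2 was left out, where its difference was 0.79 (limma adjusted p = 0.00526). Those were the only 3 of 14 alternatives in which Icos passed, with limma adjusted p up to 0.619 in the rest. These genes have other regulators, and the part of NFAT in their levels was not tested.

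**Figure D4:**
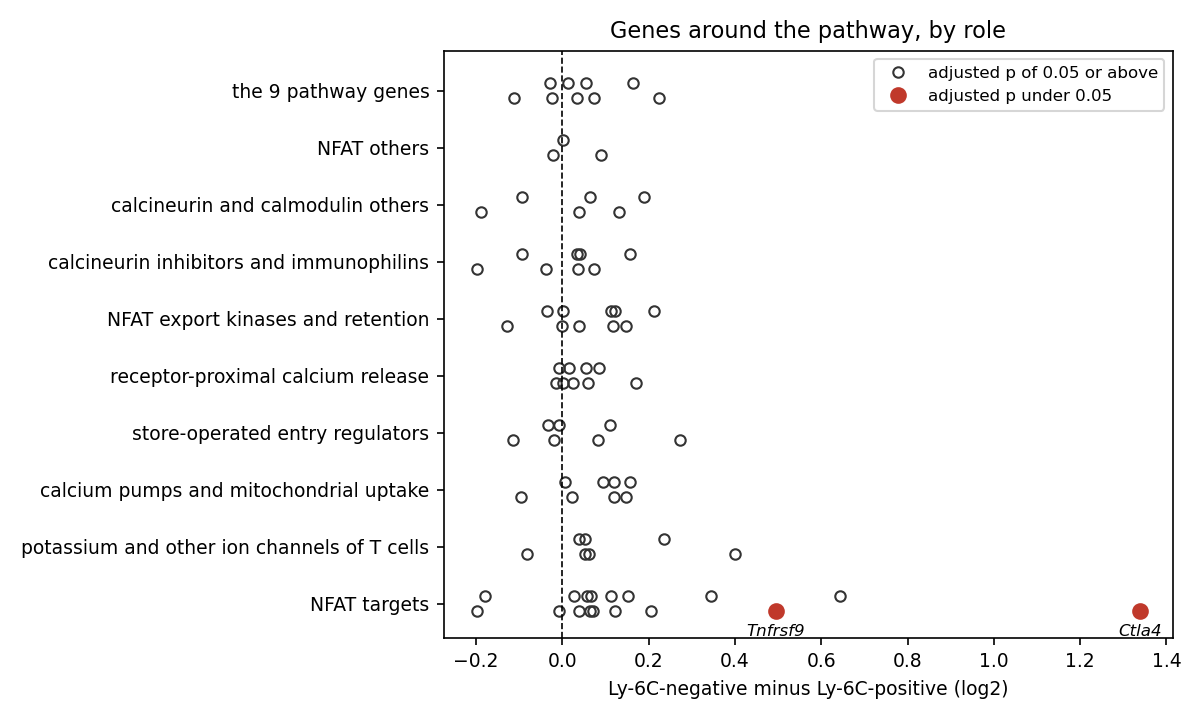
Difference between the groups on the log2 scale, Ly-6C-negative minus Ly-6C-positive, for the 9 genes and for 75 other genes of the pathway by role, each circle a gene. The filled circles are the genes past the limma threshold, Tnfrsf9 at 0.50 and Ctla4 at 1.34, and the 9 genes lie between -0.11 and 0.22.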

How the data were processed

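The deposited table holds log2 expression of 28853 probe sets on 6 arrays. Per the submitters' processing notes, the authors used RMA and Partek, with roles not given in the sources used here. RMA makes arrays' distributions much alike, so a change of total RNA cannot be seen, and small differences are compressed near background. The deposited array medians still lay slightly apart, from 6.25 to 6.27 in Ly-6C-negative and from 6.28 to 6.29 in Ly-6C-positive cells. Values were used as deposited. Of the probe sets, 21789 had 1 symbol in the platform annotation, and symbols were updated by Entrez ID for 21698. A gene's probe set with the highest mean was kept, which gave 19938 genes. No depth exists for arrays, and their number limits the precision.

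The test was that of limma 3.58.1 under R 4.3.3, with lmFit and eBayes, 2-sided, and Benjamini-Hochberg adjustment over all genes, with no filter and no covariate. Figures were drawn with matplotlib 3.10.9. The fit was tested on simulated data, with 200 genes changed in each of 20 runs. It called 3.19% of changes of 0.25 on the log2 scale, 58.6% of 0.5 and 94.1% of 1. Changes as small as the differences of the 9 genes would thus mostly go uncalled. The members and lists were chosen with earlier results of these data known. Of 81 listed other pathway genes, 6 were not analysed here. Named are the 9 members, genes past the threshold and the 3 with the smallest p in each list. Also named are Rcan1 and Ppp3r2 from short lists, and the 5 genes nearest to Orai1.

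Once group means were removed, arrays of the same number correlated across genes (r = 0.129, 0.128 and 0.107, all above 0.1), so that the replicate numbers were read as pairs, from the data and not from the labels. The alternatives were that block, a repeated quantile normalization, subtraction of array medians, genes above the median gene, every probe set, averaged probe sets per gene, a robust eBayes with a trend, array weights, an adjusted p of 0.1 and leaving out each array.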

Additional observations from a re-analysis of the deposited data

How the results depend on the processing

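None of the 9 genes passed under any of the 14 limma alternatives, or at an adjusted p of 0.1, and all 9 remained among the genes brighter than the median gene. The count of all genes called was 29, against 45 with every probe set as a feature and 54 with array weights, and from 5 to 47 with an array left out. The count of other pathway genes called was 2, and from 0 to 3 with an array left out. It was 3 with the replicate number as a block, which added Icos and changed no other call among the genes named. Array weights turned Ppp3ca to 0.042 and Nfat5 to 0.065. Stim1, at 0.033 in the main fit, was 0.0025 with the repeated quantile normalization and 0.055 with array medians subtracted. With an array left out, differences that changed sign ran from -0.11 to 0.089 for Ppp3ca, -0.062 to 0.10 for Ppp3cb, -0.025 to 0.15 for Nfatc3, -0.0019 to 0.057 for Stim1, -0.11 to 0.11 for Nfat5, -0.045 to 0.041 for Nfatc4 and -0.0047 to 0.16 for Itpka. The cause was not tested. Orai1 stayed between 0.16 and 0.31 and Nfatc1 between 0.14 and 0.21 over the alternatives. The group difference of Orai1 minus Orai2 stayed between 0.26 and 0.42 and that of Nfatc1 minus Nfatc2 between 0.15 and 0.23. With same-numbered arrays paired, 3 of the 6 family pairs had all 3 differences of 1 sign, against 2 pairs whose groups do not overlap. The added pair was Nfatc2 minus Nfatc3, at -0.029, -0.025 and -0.18. How often pairs of other genes share a sign was not counted. The 3 arrays in each group limit every interval, and signal over background is not known for these arrays.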
